A study of Mus musculus with 8 samples.

Results

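Ribosome biogenesis factors are the proteins that transcribe, modify, cleave and fold ribosomal RNA and assemble it with ribosomal proteins into the small and large subunits. The set described here holds 38 factors named in a list, each represented by its transcript with the largest total count, out of 23146 genes in the files. They were sorted by role into 4 factors of RNA polymerase I (Pol I) transcription, 4 proteins of box C/D particles, 4 proteins of box H/ACA particles, 12 small subunit factors, 10 large subunit factors and 4 other nucleolar proteins. All 38 were found in the files, and all 38 passed the filter on low counts. No factor had a count of 0 in any library, the lowest count being 128 and the highest 17455.

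Pol I copies the ribosomal RNA genes in the nucleolus, as 1 long precursor that holds the RNAs of both subunits. Small nucleolar RNAs guide its modification. Box C/D particles place methyl groups on ribose, and box H/ACA particles turn uridine into pseudouridine. Processing factors then cut the precursor and fold it into the small and the large subunit. Proliferating cells, among them the basal keratinocytes of the epidermis, use much of their transcription and translation for this work. Noc2l, the gene deleted in the study, encodes a nucleolar protein also called Nir, which binds p53, inhibits histone acetylation and takes part in large subunit assembly.

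RNA from mouse epidermis lifted off the dermis was sequenced at 2 stages, E15.5 and E17.5, named by the days of embryonic development. Knockout embryos carried floxed Nir (Noc2l) alleles and Krt14-Cre, a recombinase driven by the keratin 14 promoter, which is active in basal keratinocytes and their descendants, so that other cells in the preparation keep the gene. Control embryos carried floxed Nir alleles, as the knockouts did. Each of the 4 groups had 2 libraries, with 25223874 to 28892685 counts per library over 1 row per gene. Whether the replicates are separate embryos is not in the labels. The p-values therefore cover only the spread among these libraries, and that may be technical. Levels are CPM values, counts brought to a common library size. Changes are log2 fold changes with their standard error (SE, n = 2 libraries per group), tested with edgeR's quasi-likelihood test and called at a Benjamini-Hochberg adjusted p below 0.05 over 16341 genes.

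The labelled tissue was checked against its markers. Summed over 10 basal keratinocyte markers, the level was 7323 to 7790 CPM in E15.5 controls and 2238 to 2274 CPM in E15.5 knockouts, and it was 7883 to 7888 CPM against 1441 to 1463 CPM at E17.5. Of these 10, 9 fell at each stage, where 22.3% of all genes fell at E15.5 and 26.7% at E17.5. The remaining 1 was higher at E15.5 (0.23, not called), and 1 rose at E17.5 (0.58). The 10 suprabasal markers summed to 89448 to 94763 CPM in E15.5 controls and 6272 to 6518 CPM in E15.5 knockouts, and to 43682 to 57355 CPM against 1188 to 1360 CPM at E17.5. The 12 dermal fibroblast markers moved the other way, from 33049 to 34854 CPM to 80317 to 99346 CPM at E15.5 and from 28801 to 32938 CPM to 102386 to 107632 CPM at E17.5. No marker in these lists was at 0 in any library. All 12 fibroblast markers rose at E15.5 and 11 of 12 rose at E17.5. Markers of endothelial cells (8 of 8), myeloid cells (7 of 7) and erythroid cells (9 of 9 at E15.5, 8 of 9 at E17.5) rose as well, as did those of muscle (5 of 6 and 6 of 6), where 23.2% of all genes rose at E15.5 and 26.7% at E17.5. Of 6 melanocyte markers 6 rose at E15.5 and 2 at E17.5, the latter a share near that of all genes. In such bulk samples, fewer cells of a type and less RNA per cell cannot be told apart, and the part that this shift in makeup plays in the levels of the biogenesis factors was not tested.

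Noc2l itself stood at 107 and 97.4 CPM in E15.5 controls and at 95.6 and 91.6 CPM in E15.5 knockouts. At E17.5 its level was 105 and 121 CPM in controls and 85.4 and 86.9 CPM in knockouts. Knockout values lay below control values at both stages, but the change was small, at -0.12 ± 0.10 (adjusted p = 0.34) at E15.5 and -0.39 ± 0.10 (adjusted p = 0.0062) at E17.5. With E17.5 control replicate 2 left out, the latter was -0.29 (adjusted p = 0.052). The counts cover whole transcripts and the sources used here do not name the floxed exons, so this level does not check the genotype labels.

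Promoter sequence is shown for 3 of the factors that fell at E17.5, as the 120 bases before the annotated start (RefSeq, GRCm38.p6, plus strand, 5′ to 3′). Dkc1, at chrX:75095734-75095853, encodes the box H/ACA enzyme and had the largest fall of the 38 factors at E17.5. Rrn3, at chr16:13780579-13780698, encodes the Pol I initiation factor, and Nop2, at chr6:125131763-125131882, encodes a large subunit methyltransferase. Capitals mark CACGTG, the E-box that Myc and Max proteins bind, and CCGGAAG or its reverse complement CTTCCGG, the core of ETS family sites.
Dkc1: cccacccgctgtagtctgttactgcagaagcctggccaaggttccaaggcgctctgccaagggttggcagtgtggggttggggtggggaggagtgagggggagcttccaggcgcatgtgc
Rrn3: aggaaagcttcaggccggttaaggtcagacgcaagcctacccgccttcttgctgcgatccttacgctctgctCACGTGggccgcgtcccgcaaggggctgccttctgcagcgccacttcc
Nop2: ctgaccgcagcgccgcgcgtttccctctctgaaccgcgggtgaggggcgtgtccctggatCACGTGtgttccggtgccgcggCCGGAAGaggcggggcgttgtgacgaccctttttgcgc
The Dkc1 stretch holds neither motif, the Rrn3 stretch holds 1 E-box and the Nop2 stretch holds 1 of each. In Rrn3 a CTTCCGG begins 5 bases before the start and runs past the end of the stretch, so it is not in capitals.

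The motifs were searched on both strands in the RefSeq windows from 250 bases before to 50 bases after each start. The letters of CACGTG read the same on both strands, and the 2 motifs cannot overlap. Windows were found for 32 of the 38 factors. CACGTG was present for 8 of these 32, against 9.194% of 17642 measured genes with a window. The 8 factors were Ltv1, Mybbp1a, Nop2, Pes1, Rrn3, Tsr1, Utp20 and Wdr43. CCGGAAG on either strand was present for 11 of 32 factors (34.375%), against 12.941% of genes. The factors with CACGTG did not have the larger falls. Their median log2 fold change was -0.17 at E15.5 and -0.34 at E17.5, against -0.27 and -0.48 for the factors without it. For CCGGAAG the medians were -0.26 with and -0.27 without the motif at E15.5, and -0.40 and -0.43 at E17.5. These are descriptions of the letters in a window and say nothing of binding.

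At E15.5, 14 of the 38 factors fell in knockout epidermis and 0 rose (36.8%), while 22.3% of all genes tested fell and 23.2% rose. The log2 fold changes ran from -0.85 to 0.10 with a median of -0.27, against a median of 0.00 over all genes, and 35 of 38 were negative. Both knockout libraries lay below both control libraries for 26 factors, a pattern that 37.3% of all genes showed. No factor fell more than 2-fold. The count rested on single libraries, being 5 without control replicate 1, 8 without knockout replicate 1 and 7 without knockout replicate 2 of that stage. With upper quartile scaling it was 6, and the median was -0.18.

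At E17.5, 30 factors fell and 0 rose (78.9%), against 26.7% of all genes that fell and 26.7% that rose. All 38 log2 fold changes were negative, from -1.17 to -0.03, with a median of -0.44 against -0.02 over all genes. Knockout libraries lay below control libraries for 34 factors, as they did for 39.7% of all genes. Dkc1 and Nhp2, both of the box H/ACA particle, fell more than 2-fold. The count was 18 without E17.5 knockout replicate 1 and from 25 to 35 with other scalings, filters and tools. When libraries were scaled by their totals alone, the median was -0.65, and the median of all genes also moved, to -0.23.

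Of the 38 factors, 13 were called at both stages, 17 at E17.5 only by the threshold, 1 (Nol6) at E15.5 only, and 7 at neither. The factors' changes at the 2 stages, which come from separate libraries, had a Pearson correlation of 0.68 (Spearman 0.59) across the 38 genes, which share library depths and are not independent. Over all genes tested the values were 0.80 and 0.82.

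**Figure D1:**
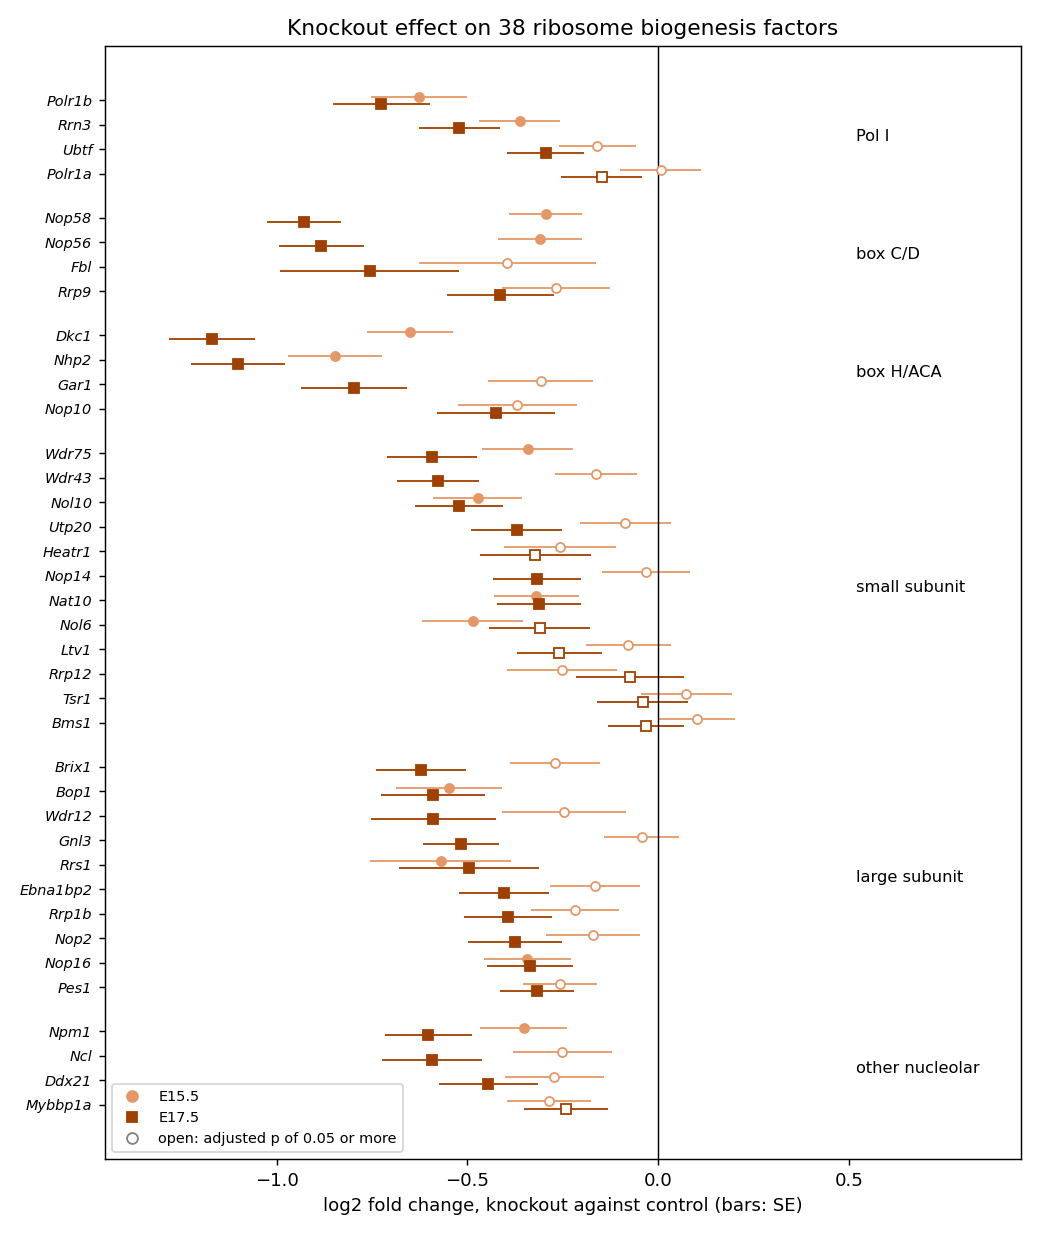
Log2 fold change of knockout against control for each of the 38 factors, grouped by role, with bars of 1 SE. Filled symbols passed the test. All squares (E17.5) lie left of 0, and the box C/D and box H/ACA factors reach farthest, down to -1.17 for Dkc1.

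The class medians ran in the same order at the extremes at both stages. The box H/ACA factors had the lowest median at both stages, at -0.51 at E15.5, where 2 of 4 fell, and at -0.95 at E17.5, where 4 of 4 fell. The box C/D factors had medians of -0.30 (2 of 4 fell) and -0.82 (4 of 4). Pol I factors stood at -0.26 (2 of 4) and -0.41 (3 of 4). Large subunit factors stood at -0.25 (3 of 10) and -0.45 (10 of 10), and small subunit factors at -0.21 (4 of 12) and -0.31 (6 of 12). The 4 other nucleolar proteins had medians of -0.28 (1 of 4) and -0.52 (3 of 4). Of all genes tested, 22.3% fell at E15.5 and 26.7% at E17.5. The E15.5 shares of the other nucleolar proteins (25%) and the large subunit factors (30%) were near that of all genes. The differences between classes were not tested.

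**Figure D2:**
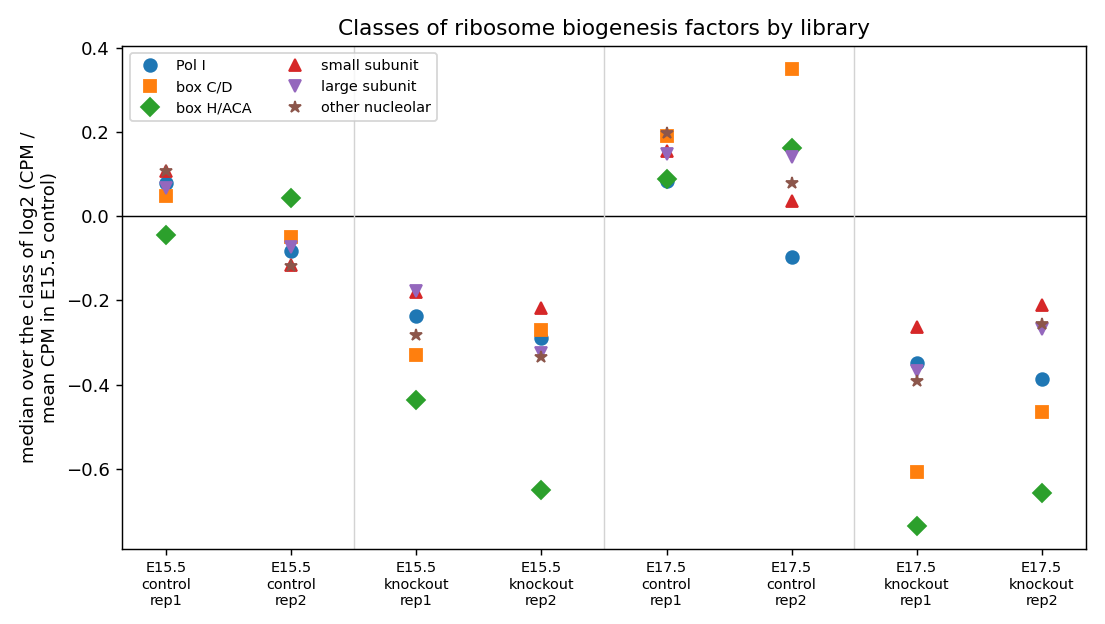
Median over each class, in every library, of the log2 ratio of a factor's CPM to its mean in E15.5 controls. In all 6 classes the 2 knockout libraries of a stage lie below the 2 control libraries of that stage. The box H/ACA class is lowest in all 4 knockout libraries, from -0.74 to -0.44.

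Among the Pol I factors, Polr1b, a large subunit of the polymerase, fell at both stages. Its level was 46.6 and 41.4 CPM in E15.5 controls, 31.6 and 25.5 CPM in E15.5 knockouts, 41.2 and 40.6 CPM in E17.5 controls and 23.9 and 25.5 CPM in E17.5 knockouts. The genotypes did not overlap at either stage, with changes of -0.63 ± 0.13 (adjusted p = 0.0019) and -0.73 ± 0.13 (adjusted p = 0.00057). Rrn3, which carries the polymerase to the ribosomal RNA promoter, stood at 74.0 and 66.5 against 53.4 and 55.9 CPM at E15.5 and at 75.3 and 66.6 against 51.1 and 47.8 CPM at E17.5, controls first. It fell by 0.36 ± 0.11 (adjusted p = 0.016) and 0.52 ± 0.11 (adjusted p = 0.0016) on the log2 scale. The E15.5 change of Rrn3 was -0.28 without E15.5 control replicate 1 (adjusted p = 0.12) and -0.34 without E15.5 knockout replicate 1 (adjusted p = 0.091). Ubtf, which binds and opens ribosomal DNA, was called at E17.5 only. Its levels overlapped at E15.5, at 160 and 140 against 142 and 126 CPM, and were apart at E17.5, at 158 and 157 against 127 and 129 CPM (-0.29 ± 0.10, adjusted p = 0.029). That call was lost when any 1 of the 4 E17.5 libraries was left out, with changes of -0.29 to -0.32. Polr1a, the largest catalytic subunit, passed the test at neither stage (0.01 ± 0.11 and -0.15 ± 0.11), with groups that overlapped at both.

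The box C/D proteins Nop58 and Nop56 form the scaffold of the particle. Nop58 stood at 95.5 and 88.6 CPM in E15.5 controls, 71.0 and 79.0 CPM in E15.5 knockouts, 112 and 115 CPM in E17.5 controls and 59.8 and 59.4 CPM in E17.5 knockouts. Controls were higher at the later stage and knockouts lower, so the gap widened from -0.30 ± 0.10 (adjusted p = 0.026) to -0.93 ± 0.10 (adjusted p = 1.1e-05). Nop56 followed the same order, with 102 and 92.0 against 72.0 and 84.9 CPM at E15.5 and 118 and 129 against 64.4 and 69.2 CPM at E17.5. It changed by -0.31 ± 0.11 (adjusted p = 0.039) and -0.88 ± 0.11 (adjusted p = 4.8e-05). At E15.5 the calls of both were lost without E15.5 control replicate 1 (-0.24 for Nop58, -0.23 for Nop56) and without E15.5 knockout replicate 1 (-0.23 and -0.20). Both were also lost with library totals (edgeR adjusted p = 0.053 and 0.074) and with upper quartile scaling (0.11 and 0.14). For Nop56 the E15.5 call was also lost without either E17.5 knockout library, where adjusted p was 0.054 and 0.052.

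Fbl, the methyltransferase of the box C/D particle, had few counts. It stood at 9.85 and 9.29 against 7.85 and 6.72 CPM at E15.5 and at 8.12 and 11.7 against 4.67 and 7.04 CPM at E17.5. Knockout libraries were the lower ones at both stages, but the change passed the test at E17.5 only (-0.39 ± 0.23, adjusted p = 0.19, and -0.76 ± 0.23, adjusted p = 0.018). Without E17.5 control replicate 2 it was -0.47 (adjusted p = 0.17) and without E17.5 knockout replicate 1 it was -0.51 (adjusted p = 0.13). Rrp9, a protein of the box C/D particle that guides small subunit processing, stood at 15.4 and 14.7 against 13.0 and 12.0 CPM at E15.5 and at 16.2 and 19.6 against 13.3 and 13.6 CPM at E17.5. It too was lower in the knockout libraries and called at E17.5 only (-0.27 ± 0.14, adjusted p = 0.15, and -0.41 ± 0.14, adjusted p = 0.027). The E17.5 call of Rrp9 was lost without E17.5 control replicate 2 (-0.27), knockout replicate 1 (-0.42) or knockout replicate 2 (-0.45). It was also lost when only the groups compared were fitted (edgeR adjusted p = 0.057).

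The 4 box H/ACA proteins also bind telomerase RNA. Dkc1 encodes dyskerin, the pseudouridine synthase of the particle. It stood at 63.6 and 55.6 CPM in E15.5 controls, 38.4 and 37.6 CPM in E15.5 knockouts, 80.0 and 70.5 CPM in E17.5 controls and 32.1 and 34.7 CPM in E17.5 knockouts. Every knockout library was below every control library of either stage, and the level in knockouts was 0.637 of controls at E15.5 (-0.65 ± 0.11, adjusted p = 0.00066) and 0.445 at E17.5 (-1.17 ± 0.11, adjusted p = 6.3e-06). Nhp2, a core protein that binds the RNA, stood at 55.7 and 62.6 against 35.4 and 30.4 CPM at E15.5 and at 65.8 and 61.0 against 27.4 and 31.7 CPM at E17.5. It had the largest fall of the 38 factors at E15.5, -0.85 ± 0.12 (adjusted p = 0.00019), and fell to 0.466 of controls at E17.5 (-1.10 ± 0.12, adjusted p = 1.9e-05).

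Gar1, which the particle needs for catalysis, stood at 37.6 and 37.7 against 31.9 and 28.9 CPM at E15.5 and at 38.1 and 50.7 against 25.2 and 25.9 CPM at E17.5. The groups were apart at both stages, but only the E17.5 change passed the test (-0.31 ± 0.14, adjusted p = 0.09, and -0.80 ± 0.14, adjusted p = 0.00052). The E15.5 change of Gar1 passed when either E17.5 control library was left out of the fit (adjusted p = 0.035 in both cases). Nop10, a small protein that links the core to the enzyme, was spread more widely, at 93.2 and 119 against 95.8 and 68.1 CPM at E15.5, where groups overlapped (-0.37 ± 0.16, adjusted p = 0.074). That change passed without E15.5 control replicate 1 (-0.53) or knockout replicate 1 (-0.64). At E17.5 it stood at 108 and 112 against 78.4 and 85.3 CPM and fell by 0.43 ± 0.16 (adjusted p = 0.038) on the log2 scale. The E17.5 call was lost when any 1 of the 4 E17.5 libraries was left out, with changes of -0.51 to -0.39.

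**Figure D3:**
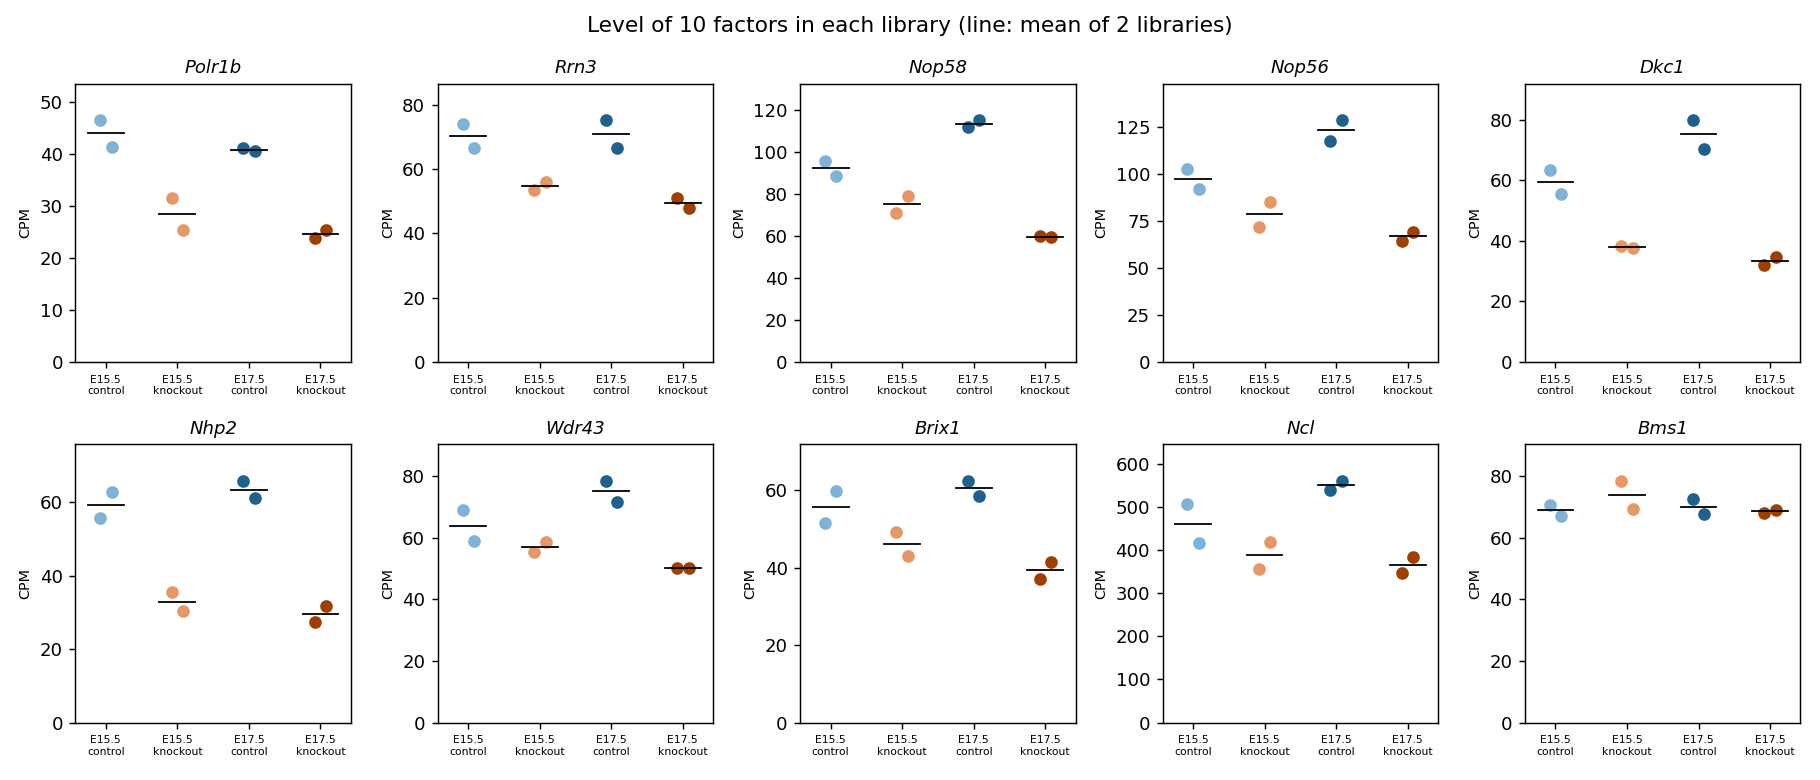
CPM of 10 factors in each library, with a line at the mean of the 2 libraries of a group. For Dkc1, Nhp2, Polr1b and Nop58 all knockout points lie below all control points of the same stage, while the points of Bms1 (67.1 to 78.4 CPM) overlap.

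Small subunit factors were divided. Wdr43 and Wdr75 belong to the complex that joins the nascent precursor first. Wdr43 stood at 68.8 and 58.9 against 55.5 and 58.6 CPM at E15.5 and at 78.4 and 71.6 against 50.3 and 50.3 CPM at E17.5. Its knockout libraries were lower at both stages, narrowly at E15.5 (-0.16 ± 0.11, adjusted p = 0.24) and clearly at E17.5 (-0.58 ± 0.11, adjusted p = 0.00085). Wdr75 stood at 52.4 and 42.5 against 37.7 and 37.2 CPM at E15.5 and at 60.0 and 56.6 against 39.8 and 37.5 CPM at E17.5, and fell at both stages (-0.34 ± 0.12, adjusted p = 0.034, and -0.59 ± 0.12, adjusted p = 0.0013). Leaving out E15.5 control replicate 1 (-0.18), knockout replicate 1 (-0.36) or knockout replicate 2 (-0.33) ended its E15.5 call.

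Nol10, a member of the small subunit processome, stood at 24.3 and 22.9 against 16.5 and 17.4 CPM at E15.5 and at 26.3 and 28.2 against 18.8 and 19.1 CPM at E17.5. The fall was of like size at the 2 stages, -0.47 ± 0.12 (adjusted p = 0.0064) and -0.52 ± 0.12 (adjusted p = 0.0027). Nol6, another processome protein, was the factor called at E15.5 only. It stood at 77.9 and 66.7 against 57.3 and 45.9 CPM at E15.5 (-0.49 ± 0.13, adjusted p = 0.011) and at 77.0 and 65.6 against 56.3 and 58.6 CPM at E17.5 (-0.31 ± 0.13, adjusted p = 0.066). The groups did not overlap at either stage, and the difference between its changes, 0.18 ± 0.19, did not pass the test (adjusted p = 0.7). Leaving out E15.5 control replicate 1 (-0.37, adjusted p = 0.096) or knockout replicate 2 (-0.34, adjusted p = 0.11) ended its E15.5 call, and its E17.5 change passed without either E15.5 knockout library (-0.33) or E17.5 control replicate 2 (-0.42).

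Of the other 8 small subunit factors, Nat10, the RNA cytidine acetyltransferase, was called at both stages (-0.32 and -0.31). Nop14 (-0.32) and Utp20 (-0.37), of the processome, were called at E17.5, where their E15.5 values were -0.03 and -0.09. The E15.5 call of Nat10 was lost when any 1 of the 4 E15.5 libraries was left out (-0.37 to -0.27). Its E17.5 call was lost without E17.5 control replicate 1 (-0.34), control replicate 2 (-0.29) or knockout replicate 1 (-0.24). With DESeq2, Nat10 was called at neither stage (adjusted p = 0.0501 and 0.057), and Nop14 was not called at E17.5 (adjusted p = 0.059). Leaving out any 1 of the 4 E17.5 libraries ended the call of Nop14 (-0.35 to -0.29), and leaving out control replicate 1 (-0.22) or knockout replicate 1 (-0.34) that of Utp20. The remaining 5 passed the test at neither stage. These were Heatr1 (-0.26 and -0.32), an early processome protein, the export factor Rrp12 (-0.25 and -0.07), and Ltv1 (-0.08 and -0.26), Tsr1 (0.07 and -0.04) and Bms1 (0.10 and -0.03). Ltv1 and Tsr1 act late, on the particle in or on its way to the cytoplasm, and Bms1 is a GTPase of the processome. Bms1 and Tsr1 lay closest to 0 at E17.5, and their genotypes overlapped at both stages. With 1 library left out, 3 of these 5 passed at 1 stage, Rrp12 at E15.5 without E15.5 control replicate 2 (-0.45), Heatr1 at E17.5 without E17.5 control replicate 2 (-0.48) and Ltv1 at E17.5 without either E15.5 knockout library (-0.28).

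All 10 large subunit factors fell at E17.5, and Bop1, Rrs1 and Nop16 fell at E15.5 too. Bop1, Pes1 and Wdr12 form 1 complex that processes the large subunit RNA. Bop1 stood at 60.2 and 45.5 against 38.2 and 34.0 CPM at E15.5 and at 64.4 and 68.3 against 41.5 and 46.6 CPM at E17.5, a fall at both stages (-0.55 ± 0.14, adjusted p = 0.0071, and -0.59 ± 0.14, adjusted p = 0.0035). Its E15.5 change was -0.33 without E15.5 control replicate 1 (adjusted p = 0.09) and -0.47 without E15.5 knockout replicate 2 (adjusted p = 0.059). Wdr12 stood at 11.8 and 12.9 against 11.6 and 9.18 CPM at E15.5 and at 13.5 and 13.8 against 9.67 and 8.44 CPM at E17.5. The E15.5 gap was narrow (-0.25 ± 0.16, adjusted p = 0.24), and the E17.5 fall was -0.59 ± 0.16 (adjusted p = 0.0099), or -0.51 without E17.5 knockout replicate 2 (adjusted p = 0.067). Pes1 changed by -0.26 ± 0.10 (adjusted p = 0.051) and -0.32 ± 0.10 (adjusted p = 0.018). The E15.5 change of Pes1 passed with limma-voom (adjusted p = 0.048), summed transcripts or a replicate block.

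Brix1, an assembly factor of the early large subunit particle, stood at 51.5 and 59.8 against 49.2 and 43.1 CPM at E15.5 and at 62.5 and 58.5 against 37.1 and 41.6 CPM at E17.5. It had the largest fall of the class at E17.5 (-0.62 ± 0.12, adjusted p = 0.001), after -0.27 ± 0.12 (adjusted p = 0.084) at E15.5. Gnl3, a nucleolar GTPase known as nucleostemin, stood at 63.1 and 58.9 against 57.2 and 61.3 CPM at E15.5, where the groups overlapped. At E17.5 it stood at 69.5 and 67.8 against 46.1 and 49.8 CPM and fell by 0.52 ± 0.10 (adjusted p = 0.0011) on the log2 scale. Of the remaining 5, Rrs1 (-0.57 and -0.50), needed to place a small ribosomal RNA in the particle, and Nop16 (-0.34 and -0.34) were called at both stages. Ebna1bp2 (-0.40), Rrp1b (-0.39) and the methyltransferase Nop2 (-0.37) were called at E17.5 only, as was Pes1. The E17.5 calls of Nop16, Ebna1bp2, Nop2 and Pes1 were lost without E17.5 knockout replicate 1, with changes of -0.29, -0.32, -0.31 and -0.26. Those of Nop16 (-0.28) and Ebna1bp2 (-0.34) were also lost without E17.5 control replicate 2, those of Nop2 (-0.33) and Pes1 (-0.31) without control replicate 1, and that of Rrs1 without any 1 of the 4 (-0.54 to -0.47). That of Rrp1b was lost without E17.5 control replicate 1 (-0.31, adjusted p = 0.084) or knockout replicate 2 (-0.40, adjusted p = 0.057). At E15.5 the call of Rrs1 was lost without control replicate 1 (-0.38) or knockout replicate 2 (-0.29), and that of Nop16 without any 1 of the 4 E15.5 libraries (-0.39 to -0.29).

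The other nucleolar proteins act as chaperones and helicases of the nucleolus. Npm1, nucleophosmin, stood at 46.7 and 47.0 against 37.6 and 35.8 CPM at E15.5 and at 52.7 and 47.9 against 30.3 and 35.9 CPM at E17.5. Its changes were -0.35 ± 0.11 (adjusted p = 0.026) and -0.60 ± 0.11 (adjusted p = 0.001), and the E15.5 call was lost when any 1 of the 4 E15.5 libraries was left out, with changes of -0.32 to -0.39. Npm1 has processed copies elsewhere in the genome, so its count is uncertain. Ncl, nucleolin, stood at 506 and 417 against 356 and 418 CPM at E15.5, where the groups overlapped by a narrow margin. At E17.5 it stood at 540 and 560 against 347 and 383 CPM and fell by 0.59 ± 0.13 (adjusted p = 0.0026) on the log2 scale. Ddx21, an RNA helicase, stood at 113 and 84.8 against 83.3 and 80.8 CPM at E15.5 and at 122 and 108 against 85.2 and 83.8 CPM at E17.5. It passed the test at E17.5 only (-0.27 ± 0.13, adjusted p = 0.11, and -0.44 ± 0.13, adjusted p = 0.013), and that change was -0.35 (adjusted p = 0.083) with E17.5 control replicate 1 left out and -0.45 (adjusted p = 0.056) with knockout replicate 2 left out. The E15.5 change of Ddx21 passed without E15.5 control replicate 2 (-0.47, adjusted p = 0.012). Mybbp1a, a nucleolar protein that binds Myb, changed by -0.29 ± 0.11 (adjusted p = 0.053) and -0.24 ± 0.11 (adjusted p = 0.083). The E15.5 change of Mybbp1a passed with DESeq2 (adjusted p = 0.048), limma-voom (adjusted p = 0.045), summed transcripts or a replicate block. Its E17.5 change passed with library totals.

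Counting on the wrong or on both strands could mix some factors with a neighbour, since the sources used here do not give the strand setting. In GENCODE M21, 12 of the 38 factors share exon positions with a coding gene on the opposite strand. Mpp1, opposite Dkc1, rose in knockouts (0.74 and 0.73 at the 2 stages), while Dkc1 fell. Parp3, opposite Rrp9, rose by more (1.41 and 1.90), and Lgals8, opposite Heatr1, rose too (0.68 and 0.68). Rmnd5b, opposite Nhp2, fell (-0.42 and -0.67) by less than Nhp2 did. Idh3b, opposite Nop56, stood at 0.00 and 0.05, and neither value passed the test. Mroh1, opposite Bop1, rose at E17.5 (0.58), and Pbrm1, opposite Gnl3, fell at that stage (-0.28). How far the counts are shared was not tested.

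The knockout effect was compared between stages in the same fit, in which the difference uses all 8 libraries and so shares them with both knockout comparisons. Of the 38 factors 32 had a lower change at E17.5 than at E15.5, and the median difference was -0.17, against 0.01 over all genes. One factor passed the test of the difference, Nop58, at -0.63 ± 0.14 (adjusted p = 0.023), where 4.34% of all genes passed in either direction and 2.47% were lower. No factor passed without E15.5 control replicate 2, E15.5 knockout replicate 2, E17.5 control replicate 2 or either E17.5 knockout replicate. Counts were 4 with library totals, 2 with DESeq2 and 2 without the filter on low counts, and 2 without E15.5 knockout replicate 1 or E17.5 control replicate 1. The next largest differences among the named factors were Nop56 (-0.57 ± 0.16, adjusted p = 0.067), Dkc1 (-0.52 ± 0.16, adjusted p = 0.1), Gar1 (-0.49 ± 0.19, adjusted p = 0.21) and Gnl3 (-0.47 ± 0.14, adjusted p = 0.091), which did not pass. By class the median difference was -0.47 for box C/D, -0.37 for box H/ACA, -0.21 for the other nucleolar proteins, -0.19 for the large subunit, -0.15 for Pol I and -0.12 for the small subunit.

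With age, the median of the factors was above 0 in controls and below 0 in knockouts, and single changes were small. In controls, 33 of 38 were higher at E17.5 than at E15.5, with a median of 0.12, but 0 passed edgeR's test, where 10.9% of all genes did. Over all genes the median was -0.005 in controls, and 50.7% were lower. At an unadjusted p below 0.05 there were 5 of 38, all higher, a smaller share than the 23.0% of all genes, and DESeq2 and limma-voom called 0. These were Nop56 (0.34 ± 0.11), Dkc1 (0.34 ± 0.11), Bop1 (0.33 ± 0.14), Nop58 (0.30 ± 0.10) and Wdr75 (0.30 ± 0.12). When libraries were scaled by their totals 6 passed, with the median of all genes at 0.19, and 3 passed with upper quartile scaling, while 1 passed without E15.5 control replicate 1. In knockouts, 27 of 38 were lower at E17.5, with a median of -0.12, against 50.3% lower and a median of -0.002 over all genes. Nop58 fell there (-0.33 ± 0.10, adjusted p = 0.042), where 13.1% of all genes passed in either direction and 6.92% fell. No factor passed there without E15.5 control replicate 1 or 2, E15.5 knockout replicate 2 or either E17.5 knockout replicate, nor with library totals, upper quartile scaling, the replicate block or the groups compared alone. Without E15.5 knockout replicate 1 the fall of Nop58 was also lost, and Rrs1 was called higher (0.64, adjusted p = 0.046). Summed over the 38 factors, the level was 2501 to 2795 CPM in E15.5 controls, 2191 to 2230 CPM in E15.5 knockouts, 2884 to 2954 CPM in E17.5 controls and 2029 to 2153 CPM in E17.5 knockouts. The sum did not overlap between any 2 of the 4 groups. Cell type markers changed with age too. In controls 9 of 10 suprabasal and 7 of 9 erythroid markers fell, while 4 of 6 melanocyte markers rose and 1 fell. None of the 10 basal or 12 fibroblast markers was called there. In knockouts 8 of 10 suprabasal and 5 of 9 erythroid markers fell, and 6 of 7 myeloid markers rose. The part of cell makeup in the factors' changes with age was not tested.

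The rest of the pathway was measured on 130 further genes. At E15.5, 38 of them fell and 1 rose, with a median of -0.24, and at E17.5, 78 fell and 1 rose, with a median of -0.40, where 22.3% and 26.7% of all genes fell. The further Pol I genes fell in 4 of 12 cases at E15.5 and 9 of 12 at E17.5. Among them were the polymerase subunit genes Polr1d (-0.88 and -0.68) and Polr1g (-0.21, not called, and -0.99), the promoter selectivity factors Taf1c (-0.70 and -0.59) and Taf1d (-0.01, not called, and -0.79), and Tcof1 (-0.63 and -0.59), which encodes treacle. The transcript used for Taf1d, with the largest total of its 3, is a non-coding one in RefSeq. The changes of Polr1g (-0.78 ± 0.16, adjusted p = 0.02) and Taf1d (-0.78 ± 0.18, adjusted p = 0.032) differed between the stages. They were 2 of the 130 further genes (1.54%), a smaller share than the 4.34% of all genes that passed this test. Of 8 further box C/D genes 3 fell at each stage. Nufip1 (-0.44 and -0.40) and Znhit3 (-0.71 and -0.93), which help to assemble the particle, fell at both, Snu13 (-0.60), a core protein, at E15.5, and Nolc1 (-0.63), a chaperone of small nucleolar particles, at E17.5. The 2 assembly factors of box H/ACA particles were Naf1, which fell at both stages (-0.66 ± 0.16 and -1.01 ± 0.16), and Shq1, which fell at E17.5 (-0.67 ± 0.24).

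Of all genes tested, 22.3% fell and 23.2% rose at E15.5, and 26.7% fell and 26.7% rose at E17.5. Of 45 further small subunit genes, 14 fell (31.1%) and 1 rose at E15.5, and 26 fell (57.8%) and 1 rose at E17.5. The processome genes Wdr46 (-0.76 and -1.03), Utp14a (-0.58 and -0.65) and Utp18 (-0.57 and -0.71) fell at both stages, as did Utp15 (-0.45 and -0.73), while Esf1 (-0.74) fell at E17.5. The gene that rose was Rrp8 (0.29), a nucleolar methyltransferase, at E15.5 and Riok3 (0.34), a kinase, at E17.5. Of 47 large subunit genes, 14 fell at E15.5 (29.8%) and 30 at E17.5 (63.8%). Eif6, which keeps the subunits apart until the large one is mature, fell by 0.77 and 0.48 on the log2 scale, and Efl1, which helps to release it, by 0.79 and 0.57. Nop53 (-0.74 and -0.44), Wdr74 (-0.38 and -0.82), Rsl1d1 (-0.34 and -0.60) and Nifk (-0.35 and -0.69) fell at both stages. Exosome and nuclease genes, which trim the RNA, fell in 2 of 16 cases at E15.5, Exosc5 (-0.51) and Exosc6 (-0.60), a share below that of all genes. At E17.5, 8 of 16 fell, among them Exosc2 (-0.80), Exosc9 (-0.53) and Exosc1 (-0.55).

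**Figure D4:**
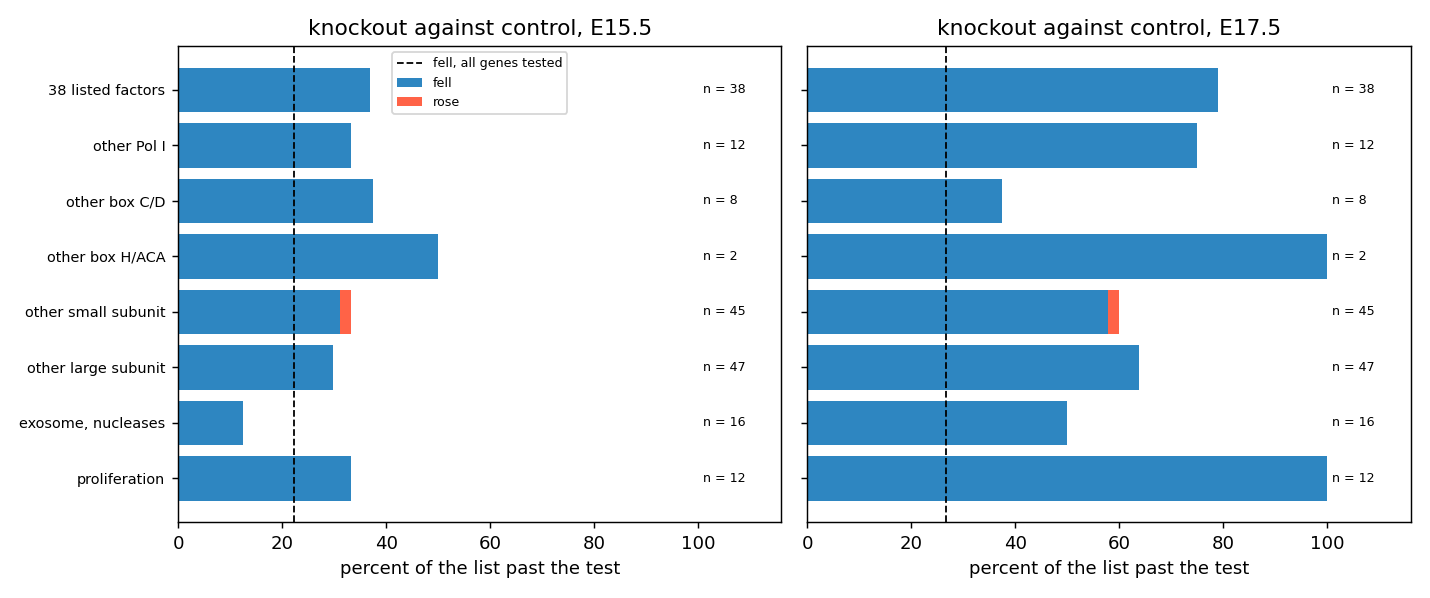
Percent of each list called lower (blue) or higher (red) in knockout epidermis, with the share of all tested genes called lower as a dashed line (22.3% at E15.5, 26.7% at E17.5). At E17.5 all lists lie beyond the line, while at E15.5 the exosome list lies short of it.

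Genes that encode Myc proteins, activators of ribosome biogenesis genes, were listed with their partners and antagonists. At E15.5, 4 of 11 fell and 1 rose, where 22.3% of all genes fell and 23.2% rose. At E17.5, 4 fell and 2 rose, where 26.7% of all genes fell and 26.7% rose. Mycl stood at 66.5 and 62.6 against 5.96 and 7.42 CPM at E15.5 and at 55.9 and 57.6 against 6.02 and 3.84 CPM at E17.5 (-3.27 ± 0.18, adjusted p = 1.3e-07, and -3.52 ± 0.19, adjusted p = 5.0e-08). Mycn stood at 23.6 and 17.8 against 4.55 and 5.35 CPM at E15.5 and at 35.7 and 36.7 against 3.32 and 3.99 CPM at E17.5 (-2.06 ± 0.17 and -3.31 ± 0.18, adjusted p = 3.4e-06 and 6.4e-08). The knockout libraries of both genes lay far below the controls. The part of cell makeup in these falls was not tested, nor was any role of Myc proteins in the factors' levels. Myc itself changed less (-0.41 ± 0.16, adjusted p = 0.059, and -0.54 ± 0.16, adjusted p = 0.016). Among the genes for Mxd proteins, which compete for Max, Mxi1 fell (-0.84 and -0.82) and Mxd4 rose (0.64 and 0.42). Mxd1, named after its values were seen, fell at E15.5 (-0.97 ± 0.17, adjusted p = 0.00067) and was not called at E17.5 (-0.38 ± 0.17, adjusted p = 0.082), and Mga, which encodes a Max partner, rose at E17.5 (0.34).

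Proliferation genes were measured beside the biogenesis factors. Summed over 12 genes the level was 1454 to 1599 CPM in E15.5 controls against 1227 to 1296 CPM in knockouts, and 1713 to 1756 CPM against 978 to 1159 CPM at E17.5. At E15.5, 4 of 12 fell, with a median of -0.27, and at E17.5 12 of 12 fell, with a median of -0.69, where 22.3% and 26.7% of all genes fell. Ccnb1 (-0.76 and -1.13), which drives entry into mitosis, Mcm7 (-0.53 and -0.75), of the replication helicase, and Top2a (-0.37 and -0.77), the topoisomerase of dividing cells, fell at both stages. The part of proliferation and of cell makeup in the fall of the biogenesis factors was not tested.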

How the data were processed

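RNA of mouse embryonic epidermis was measured in 8 libraries, 2 in each of 4 groups. Per the series' design text, the authors aligned reads to mm10 with TopHat2 (version 2), counted them with HOMER and called genes with edgeR. The sources used here do not give the strand setting or how reads with several matches were treated. The deposited values are raw counts per RefSeq transcript, with no normalization. Of 30521 transcripts, 29144 were named by the RefSeq gene table (GRCm38.p6) and 177 by GENCODE M21. The 1200 without a name, 781 of them marked in the files as further places of a transcript, held 1.797% to 4.642% of counts per library and were left out.

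For each gene the transcript with the largest total was used (3879 of 23146 genes had several, among them 4 factors). Counts were tested with edgeR 4.0.16 (R 4.3.3), with filterByExpr, TMM scaling and a quasi-likelihood fit of 1 mean per group to all 8 libraries. The SE is the size of the log2 fold change over the root of its F statistic. The code was tested on simulated data. Replicates correlated at 0.992 to 0.994 (log2 CPM) and were not repeats of 1 library, since chi-square values of their counts were 15.6 to 33.8 per gene.

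Alternatives were other scalings, DESeq2 1.42.0, limma-voom (limma 3.58.1), other filters, summed transcripts, the groups compared alone, a replicate block and each library left out. The factors, the lists and the classes were chosen with earlier results of these data known. Values in every library are given for Noc2l and, per class, for at most 4 called factors with the smallest adjusted p. From each other list up to 3 called genes per direction and comparison are named. Mycl and Mycn are given in every library as well. Other genes outside that rule are given as counts or by their change only.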

Additional observations from a re-analysis of the deposited data

Results flagged for a closer look

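Among the 38 factors the knockout effect of Nop58 differed between the stages, by -0.63 on the log2 scale (E17.5 minus E15.5, edgeR adjusted p = 0.023). Its level was lower in both knockout libraries than in both control libraries at each stage. Nop58 was 1 of 38 factors (2.63%), a smaller share than the 4.34% of all genes that passed this test. The same test of the difference called 6 of 10 suprabasal, 4 of 6 melanocyte and 3 of 10 basal markers lower. It called 2 of 6 muscle and 2 of 7 myeloid markers higher, and no fibroblast, endothelial or erythroid marker. Outside the marker lists it picked out 3 further genes, 2 of the 130 in the pathway lists and 1 of the 11 in the Myc list. These were Mycn (-1.24, adjusted p = 0.016), Polr1g (-0.78, adjusted p = 0.02) and Taf1d (-0.78, adjusted p = 0.032). For Nop58 and each of these 3 the fall in knockouts was larger at E17.5 than at E15.5. For Taf1d, counted on a non-coding transcript, the E15.5 groups overlapped.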

How the results depend on the processing

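The direction of the factors' median held in all 18 alternatives at both stages. At E15.5, 14 factors fell; the count was 6 with upper quartile scaling and 5 to 15 with 1 library left out. The median of -0.27 was -0.18 with upper quartile scaling, and -0.35 to -0.23 with 1 library left out. At E17.5, 30 fell, with 25 to 35 in other alternatives and 18 to 32 with 1 library left out, and the median was -0.65 with library totals and -0.49 to -0.44 with 1 library left out. The difference between stages gave 1 factor, 4 with library totals, 2 with DESeq2, 2 with no filter on low counts and 0 to 2 with 1 library left out. The control stage comparison gave 0, 6 with library totals, 3 with upper quartile scaling and 0 to 1 with 1 library left out. In knockouts it gave 1, and 0 with library totals, upper quartile scaling, the replicate block or the groups compared alone, and 0 to 1 with 1 library left out, where the 1 without E15.5 knockout replicate 1 was a rise of Rrs1 and not the fall of Nop58. Calls held in all 18 alternatives for 4 of 14 factors at E15.5 (Polr1b, Dkc1, Nhp2 and Nol10) and for 15 of 30 at E17.5. Upper quartile scaling ended the E15.5 calls of Rrn3, Nop56, Nop58, Wdr75, Nat10, Nop16, Rrs1 and Npm1. It also ended the E17.5 calls of Ubtf, Nop10, Nop14, Nat10 and Rrs1. Library totals ended the E15.5 calls of Nop56, Nop58 and Nat10. DESeq2 ended the calls of Nat10 at both stages and of Nop14 at E17.5.

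Some changes near 0 turned sign. With upper quartile scaling Nop14 (0.060), Ltv1 (0.014), Utp20 (0.0057) and Gnl3 (0.049) were above 0 at E15.5, and Tsr1 (0.0017) and Bms1 (0.011) at E17.5. With 1 library left out, E15.5 values ran from -0.048 to 0.062 for Polr1a, -0.15 to 0.090 for Nop14, -0.066 to 0.23 for Tsr1, -0.20 to 0.032 for Ltv1 and -0.096 to 0.0074 for Gnl3. E17.5 values ran from -0.18 to 0.033 for Rrp12, -0.11 to 0.027 for Tsr1 and -0.083 to 0.019 for Bms1. The cause was not tested.

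With the replicate number as a block, 16 factors fell at E15.5, 32 at E17.5 and 1 differed between stages. Deviations of same-numbered libraries correlated at 0.10 at E15.5 and -0.04 at E17.5, over 2 pairs per stage, which can neither show nor exclude pairing. The sources used here do not say that the numbers pair the samples, so the reported values use no block. With 2 libraries per group, the spread of each group rests on a pair.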
